A study of Homo sapiens with 8 samples.

Results

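The 9 genes for class II histocompatibility molecules and their partners and CIITA, the gene of their transcriptional coactivator, were examined in the histone mark peaks of HL-60 cells with and without all-trans retinoic acid (ATRA). The 10 members were taken by name, without a threshold on their values, out of 20090 protein-coding genes on chromosomes 1 to 22 and X. They are CIITA on chromosome 16, CD74 on chromosome 5, and HLA-DRA, HLA-DRB1, HLA-DQA1, HLA-DQB1, HLA-DPA1, HLA-DPB1, HLA-DMA and HLA-DMB on chromosome 6. HL-60 is a human promyelocytic leukemia cell line that differentiates towards granulocytes under ATRA. Cells received 1 µM ATRA or the same volume of its solvent ethanol for 4 days, and all groups come from this 1 cell line. Chromatin was precipitated with an antibody against H3K4me3 (trimethylation of lysine 4 of histone H3, found at active promoters) or H3K27ac (acetylation of lysine 27, found at active promoters and enhancers). Each combination of mark and treatment had 2 replicates, which gave 8 lists of broad peaks on hg19.

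Class II molecules are heterodimers on the surface of antigen-presenting cells that show peptides from internalized proteins to CD4+ T cells. The DR, DQ and DP molecules carry the peptide, the invariant chain encoded by CD74 keeps the peptide groove closed on the way to the endosome, and the DM heterodimer exchanges the last invariant chain fragment for a peptide. Their genes share a promoter module, known as the W/S, X and Y boxes, on which RFX, CREB and NF-Y proteins assemble, and they are silent until CIITA is recruited to that complex. CIITA itself has alternative promoters, of which promoter I is known from dendritic cells and macrophages, promoter III from B cells and promoter IV as the promoter induced by interferon gamma. B cells, dendritic cells and macrophages carry class II molecules, whereas HL-60 cells are known to lack them.

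The lists held 13241 to 16487 H3K4me3 peaks and 15457 to 39332 H3K27ac peaks a library. The total length under H3K4me3 peaks was 62.3 to 63.2 Mb in the ATRA-treated cells and 47.7 to 59.8 Mb in the control cells. The H3K27ac peaks covered 64.8 to 86.1 Mb in the ATRA-treated cells and 28.8 to 54.0 Mb in the control cells, so the ratio of the mean totals was 0.87 on the log2 scale for H3K27ac and 0.22 for H3K4me3. Read depth is unknown, and in bulk chromatin a mark on few cells and a weak mark on many cannot be told apart. With 2 libraries against 2, no exact two-sided test can give a p below 0.33, so no test was run, and values are called different only where both ATRA libraries lie on the same side of both control libraries. H3K4me3 lay over the transcription start site (TSS) in all 4 libraries of that mark for 2 of 9 granulocyte and promyelocyte markers, 0 of 4 monocyte and macrophage markers, 0 of 5 B cell markers, 1 of 5 dendritic cell markers and 0 of 4 T cell markers. These were MPO and CSF3R of the granulocyte lineage and BATF3 of the dendritic cell list. Of the B cell markers, MS4A1 and CD79B had no H3K4me3 peak in any library, whereas the CD79A TSS was covered in both ATRA libraries and in control replicate 1.

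No member had an H3K4me3 peak over the TSS of its canonical transcript in any of the 4 H3K4me3 libraries. The count of members marked in both replicates was thus 0 of 10 in the ATRA-treated cells and 0 of 10 in the control cells, against 51.9% and 50.9% of all protein-coding genes. For H3K27ac, the count was again 0 of 10 in both conditions, against 28.6% and 21.6% of all genes. The single TSS that lay under a peak was that of HLA-DMB, with H3K27ac in ATRA replicate 2. An H3K4me3 peak was missing from the TSS in all 4 libraries for 45.7% of all genes, an H3K27ac peak for 56.5%, and a peak of either mark in all 8 libraries for 43.7%.

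The members fell into a bare set of 6 genes and a set of 4 genes with some marked chromatin nearby. HLA-DRA, HLA-DRB1, HLA-DQA1, HLA-DQB1, HLA-DPA1 and HLA-DPB1, which encode the peptide-binding chains, had 0 bp under peaks of either mark in each of the 8 libraries, counted over the gene body and 10 kb on each side. A window without any peak in all 8 libraries was found for 23.3% of all protein-coding genes, a window without H3K4me3 for 31.4% and a window without H3K27ac for 27.2%. CIITA, HLA-DMA, HLA-DMB and CD74 had peaks of both marks in their windows. The plot of length under peaks by gene shows this split.

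**Figure D1:**
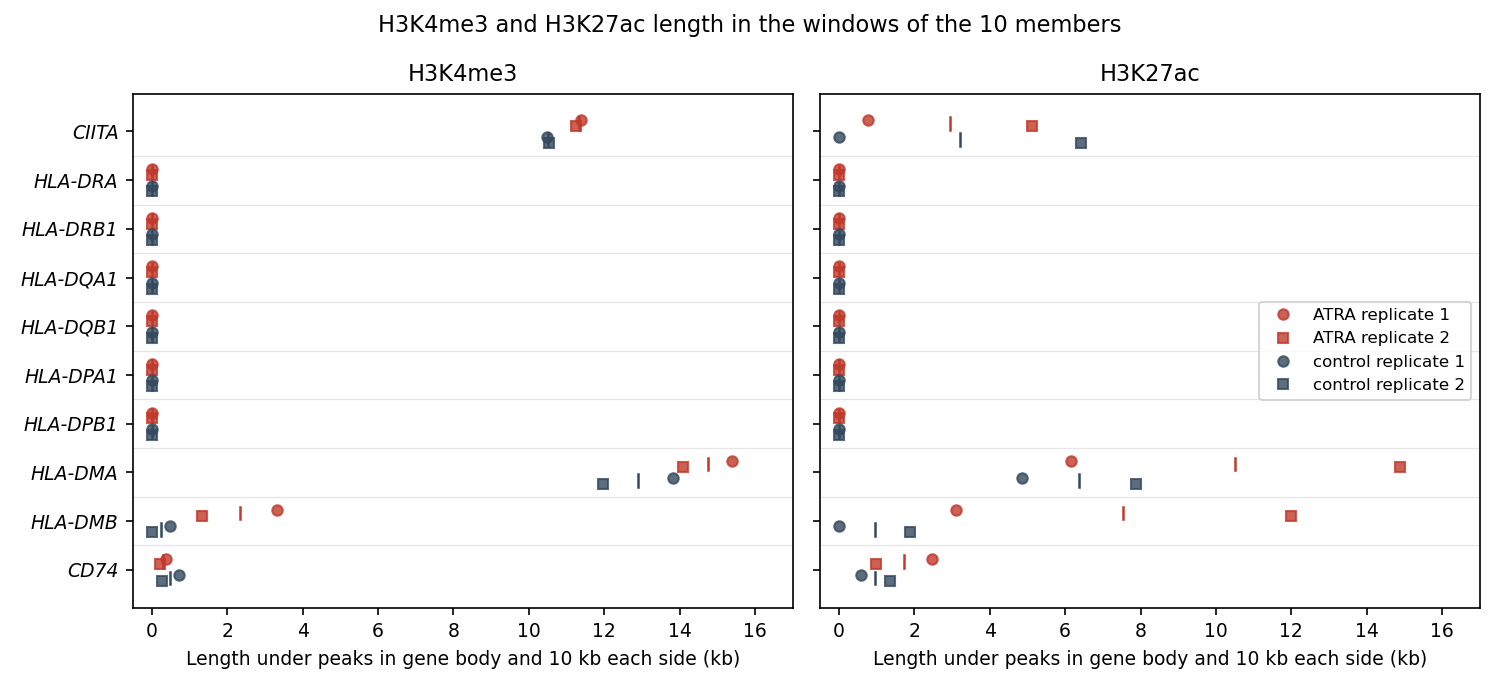
Length under H3K4me3 (left) and H3K27ac (right) peaks in kb over the gene body and 10 kb each side for the 10 members. Each point is a library (circles replicate 1, squares replicate 2) and each vertical line is the mean of 2 libraries, in red for ATRA and dark blue for control; the 6 DR, DQ and DP genes sit at 0 in all 8 libraries, and the longest value is 15404 bp of H3K4me3 in the HLA-DMA window.

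The bare DR and DQ genes lie in a single stretch. No peak of either mark in any of the 8 libraries fell between positions 32195301 and 32760965 of chromosome 6, which is 565665 bp. This stretch holds the TSS of 9 protein-coding genes, namely TSBP1, BTNL2, HLA-DRA, HLA-DRB5, HLA-DRB1, HLA-DQA1, HLA-DQB1, HLA-DQA2 and HLA-DQB2, 4 of which are members. H3K27ac peaks of ATRA replicate 2 bordered it on both sides. Of the 55341 intervals between neighboring peaks in the genome, 853 were at least as long, and 61 held at least as many protein-coding TSS. For H3K4me3 alone, the interval without a peak ran from 32166061 to 32764538, over 598478 bp. From the HLA-DRA TSS, the nearest H3K4me3 peak was 241604 to 242238 bp away in the 4 libraries, and the nearest H3K27ac peak 212364 to 242779 bp away.

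HLA-DPA1 and HLA-DPB1 lie in another stretch without peaks, from 33019316 to 33073308, which spans 53993 bp and holds the TSS of these 2 genes alone. Of the 55341 intervals between neighboring peaks, 8965 were at least as long and 1461 held at least as many protein-coding TSS. Its borders, too, were H3K27ac peaks of ATRA replicate 2. From the HLA-DPB1 TSS, the nearest H3K4me3 peak was 56559 to 97423 bp away and the nearest H3K27ac peak 24452 to 102396 bp away. The canonical HLA-DPA1 transcript starts inside the HLA-DPB1 gene, on the opposite strand, and none of the 8 annotated HLA-DPA1 starts lay under a peak.

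**Figure D2:**
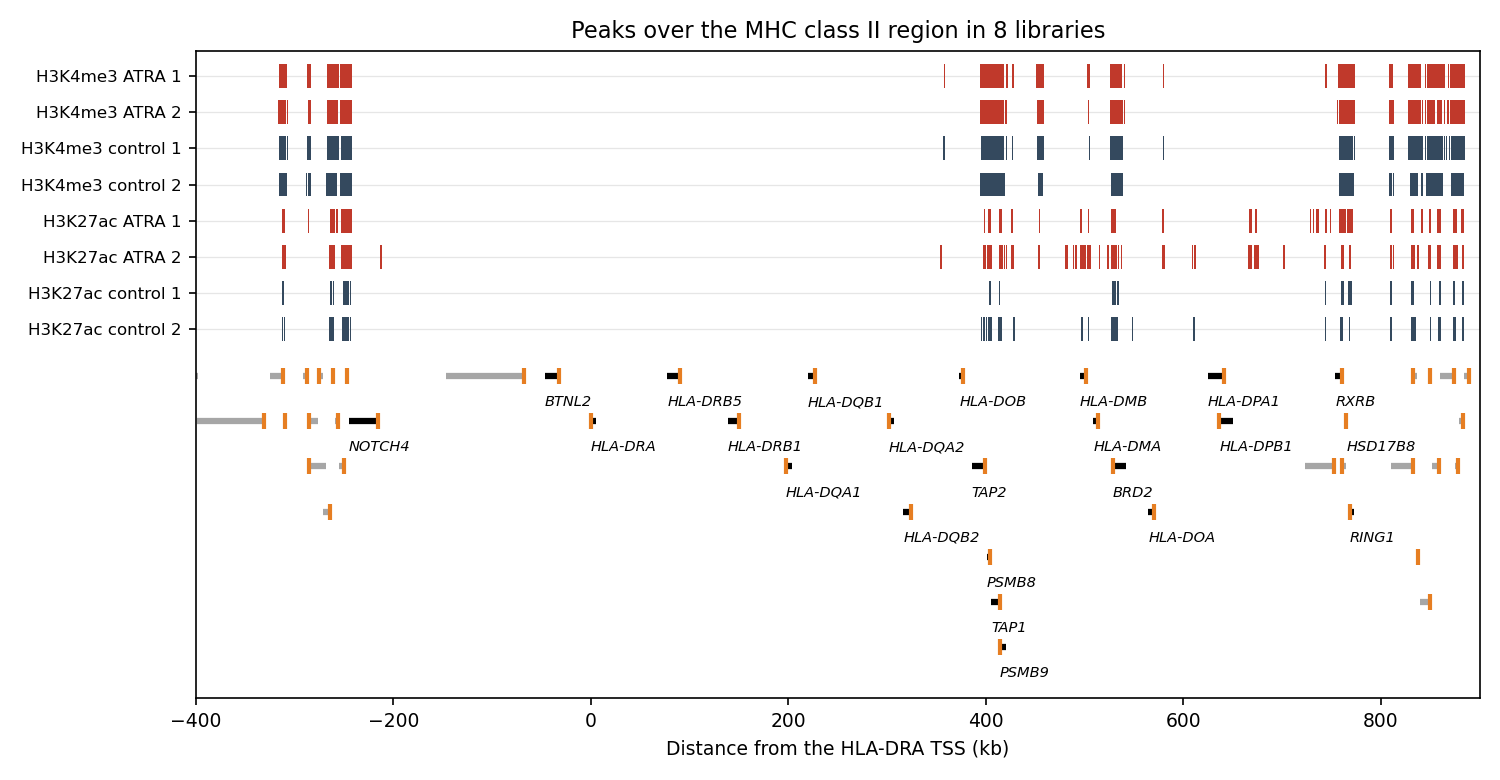
Peaks of the 8 libraries (rows, ATRA in red and control in dark blue) and protein-coding genes (bars below, TSS in orange, genes that the text does not discuss in gray without a name) against the distance from the HLA-DRA TSS in kb. Peaks shorter than 1.2 kb are drawn 1.2 kb wide; the 565.7 kb around HLA-DRA to HLA-DQB2 hold no peak in any row, whereas TAP1, PSMB9 and BRD2 are covered in all 4 H3K4me3 libraries.

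Peaks called from short reads depend on how many positions of a region can be told apart from the rest of the genome, and class II genes have near-identical copies. Of 32-base words taken every 5 bases from the reference, 81.9% of those in the DR and DQ stretch occurred once in the primary GRCh37 assembly. Within 1 kb of the TSS this share was 92.9% for HLA-DRA, 80.2% for HLA-DRB1, 87.6% for HLA-DQA1, 99.7% for HLA-DQB1 and 96.2% for HLA-DPB1. The class I genes HLA-B, HLA-C and HLA-E, which had H3K4me3 over the TSS in all 4 libraries, had 85.0%, 84.5% and 80.5% by the same measure. HLA-F, which had no peak of either mark in its window in any library, had 84.8%. Over the gene body and 10 kb each side the share was 85.2% for HLA-DRA, 79.1% for HLA-DRB1, 80.5% for HLA-DQA1 and 75.1% for HLA-DQB1. It was 91.1% for HLA-DPA1 and 93.6% for HLA-DPB1. The class I genes HLA-B, HLA-C, HLA-E and HLA-F had 86.8%, 78.7%, 76.4% and 87.5% over such windows. The share describes the reference and not the HL-60 sequence, and its bearing on the bare windows was not tested. The read length is not given in the sources used here, and reads from HLA-DRB1 and HLA-DRB5 may have been split or dropped by the alignment.

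The promoters of 5 class II genes are shown because they carry letters of the class II module although none was marked in both replicates of a condition. The sequences are the 200 bases before the canonical TSS on the gene's own strand, from GRCh37. Capitals mark the Y box core ATTGG, in either direction, and the X box type motif ACNGATG, which was chosen from these promoters and searched on both strands. The sequences are those of HLA-DRB1 (chr6:32557626-32557825, - strand), HLA-DQB1 (chr6:32634435-32634634, - strand), HLA-DPB1 (chr6:33043567-33043766, + strand), HLA-DMA (chr6:32920875-32921074, - strand) and HLA-DMB (chr6:32908806-32909005, - strand).
HLA-DRB1: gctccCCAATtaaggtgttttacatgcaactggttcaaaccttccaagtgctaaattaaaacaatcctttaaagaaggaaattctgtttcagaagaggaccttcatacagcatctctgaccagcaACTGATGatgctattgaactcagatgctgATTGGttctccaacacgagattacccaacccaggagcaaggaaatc
HLA-DQB1: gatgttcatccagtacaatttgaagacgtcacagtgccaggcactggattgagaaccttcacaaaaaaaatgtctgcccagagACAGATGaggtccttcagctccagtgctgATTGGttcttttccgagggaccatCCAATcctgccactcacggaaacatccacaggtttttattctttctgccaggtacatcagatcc
HLA-DPB1: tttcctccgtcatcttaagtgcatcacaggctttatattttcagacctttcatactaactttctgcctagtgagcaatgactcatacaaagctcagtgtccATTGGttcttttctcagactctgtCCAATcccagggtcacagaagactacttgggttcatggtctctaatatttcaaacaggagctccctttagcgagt
HLA-DMA: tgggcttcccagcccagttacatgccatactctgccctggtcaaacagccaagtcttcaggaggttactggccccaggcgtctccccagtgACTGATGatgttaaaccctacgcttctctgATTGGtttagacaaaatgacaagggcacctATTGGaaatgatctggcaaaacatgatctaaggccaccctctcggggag
HLA-DMB: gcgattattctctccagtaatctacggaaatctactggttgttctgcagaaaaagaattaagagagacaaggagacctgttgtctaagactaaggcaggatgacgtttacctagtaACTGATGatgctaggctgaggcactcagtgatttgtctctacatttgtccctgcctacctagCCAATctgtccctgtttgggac

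The 5 promoters were picked for these letters and the X box type motif was taken from them, so the matches are a description and their number was fixed by the choice. The Y box core stood in all 5 and also before HLA-DQA1 and CD74, but not before HLA-DPA1. The X box type motif stood in those of HLA-DRB1, HLA-DQB1, HLA-DMA and HLA-DMB, but not in those of HLA-DPB1, HLA-DQA1, HLA-DPA1 and CD74. For HLA-DPA1, all 200 bases searched lay in annotated exons of HLA-DPA1 or HLA-DPB1. The missing matches there do not show that its promoter lacks these motifs. Of the 20090 protein-coding promoters of the same length, 30.2% held the Y box core and 3.37% the X box type motif. In HLA-DRB1 and HLA-DQB1 the X box type motif was followed by the Y box core on the same strand after 22 bases, and in HLA-DMA after 23 bases. An interval of 10 to 30 bases in that order was found in 21 of the 20090 promoters, which is 0.105%. These are matches of letters, and the factors were not measured.

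HLA-DMB was the member whose ATRA and control libraries did not overlap for either mark. The HLA-DM genes lie next to each other on the minus strand, HLA-DMB from 32902406 to 32908805 and the canonical HLA-DMA transcript from 32916395 to 32920874, upstream of HLA-DMB. H3K4me3 in the HLA-DMB window covered 3325 and 1340 bp in ATRA replicates 1 and 2 and 488 and 0 bp in control replicates 1 and 2. Both ATRA values lay above both control values. The log2 ratio of the means, with a pseudocount of 1000 bp added to each mean, was 1.42. All of this length belonged to 1 peak per library between the 2 genes, at 1097 to 4421 bp upstream of the HLA-DMB TSS in ATRA replicate 1, at 2198 to 3537 bp in ATRA replicate 2 and at 3040 to 3527 bp in control replicate 1. The deposited −log10 q of these peaks was 33.8 and 39.0 in the ATRA libraries and 1.77 in the control library. The HLA-DMB gene body itself had 0 bp of H3K4me3 in all 4 libraries.

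H3K27ac was found at the same place. Between HLA-DMB and HLA-DMA it covered 967 and 4195 bp in the ATRA libraries and 0 and 878 bp in the control libraries. In the HLA-DMB gene body it covered 2125 and 5971 bp in the ATRA libraries and 0 and 1005 bp in the control libraries. Over the whole HLA-DMB window the values were 3092 and 11992 bp against 0 and 1883 bp, a log2 ratio of 2.14. The groups did not overlap, although ATRA replicate 2 alone reached the TSS, with a peak of 6551 bp from 32902835 to 32909385. These H3K27ac peaks were weak by the deposited scores. Among the H3K27ac peaks in the HLA-DMB window, 1 had a −log10 q of at least 5, the control replicate 2 peak of 1005 bp in the gene body at 6.08, so that with such peaks alone the log2 ratio was -0.59. The other control replicate 2 peak, between the HLA-DM genes, had 4.42. The ATRA peaks of this window ran from 0.68 to 1.24, so the control peaks scored above all of them.

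The HLA-DMA TSS, at 32920874, had no peak of either mark. The nearest was an H3K27ac peak of 219 bp in ATRA replicate 2, at 964 to 1182 bp upstream. H3K4me3 in the HLA-DMA window covered 15404 and 14100 bp in the ATRA libraries and 13814 and 11968 bp in the control libraries, and H3K27ac covered 6162 and 14871 bp against 4851 and 7872 bp. Most of the H3K4me3 was a peak of 11968 to 13326 bp over the promoter of BRD2, a bromodomain gene on the opposite strand, which also covered the most distant annotated HLA-DMA start at 32936871. BRD2 was marked by both marks over its TSS in all 8 libraries. Without the peaks over the TSS of other genes, the HLA-DMA log2 ratio for H3K4me3 was 1.54 in place of 0.18. What remained was the peak between the HLA-DM genes and, in ATRA replicate 2, a peak of 587 bp from 32932935 to 32933521.

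**Figure D3:**
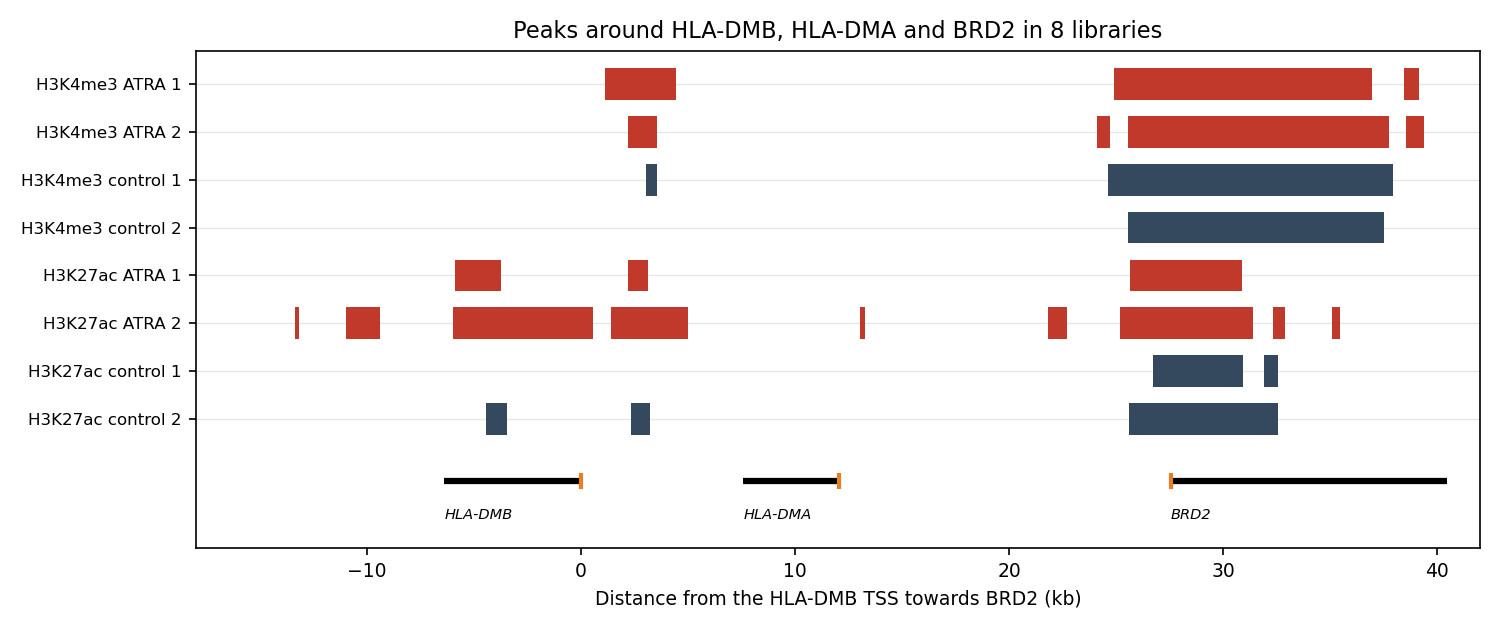
Peaks of the 8 libraries (rows) around HLA-DMB, HLA-DMA and BRD2 against the distance from the HLA-DMB TSS in kb, with ATRA in red, control in dark blue, canonical transcripts as black bars and TSS in orange. The peak between HLA-DMB and HLA-DMA is present in 6 of 8 rows and is longest in the ATRA rows, and the BRD2 promoter is covered in all 8 rows.

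The stretch covered in most libraries between the HLA-DM genes is 106 bp, chr6:32911845-32911950, at 3040 to 3145 bp upstream of the HLA-DMB TSS. It lay under a peak in 6 of 8 libraries, all but H3K4me3 control replicate 2 and H3K27ac control replicate 1. No annotated exon overlaps it, and its only annotation is an intron of a transcript that reads through both HLA-DM genes. The sequence is given on the minus strand, from which both genes are read.
HLA-DM intergenic stretch: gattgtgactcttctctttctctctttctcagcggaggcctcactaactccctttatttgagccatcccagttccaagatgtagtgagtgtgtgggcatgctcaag

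At CIITA, on the plus strand of chromosome 16 from 10960079 to 11036878, the annotated starts of protein-coding transcripts formed 4 clusters. Cluster 1 lay at 10960079 to 10960117, cluster 2 with the canonical TSS at 10971055 to 10971067, cluster 3 at 10972826 and cluster 4 at 11016024, where the single transcript is annotated with an incomplete start. By their order, the clusters 1, 2 and 3 correspond to the promoters known as I, III and IV. No cluster had a peak of either mark within 500 bp in any of the 8 libraries, so that 0 of 4 were marked. The nearest peaks to cluster 1 were 2414 bp away for H3K4me3 and 1983 bp away for H3K27ac. Cluster 2 was 7921 bp from the nearest H3K4me3 peak and 4520 bp from the nearest H3K27ac peak, and cluster 3 was 9692 bp and 6291 bp away.

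The sequence before cluster 3 is shown because it is the promoter that interferon gamma induces. It is the 200 bases before the start, chr16:10972626-10972825 on the plus strand. Capitals mark the E box CACGTG, bound by USF factors, and the motif GAAANNGAAA, of the type bound by interferon regulatory factors, both searched on both strands.
CIITA cluster 3: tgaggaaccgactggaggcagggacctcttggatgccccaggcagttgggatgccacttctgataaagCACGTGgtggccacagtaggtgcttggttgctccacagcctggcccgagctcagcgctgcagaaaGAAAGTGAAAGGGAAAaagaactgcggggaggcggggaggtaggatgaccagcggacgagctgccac

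The E box stood at 132 bp before the start of cluster 3, and was found in 6.94% of all protein-coding promoters of this length. The interferon factor type motif stood at 2 overlapping positions before cluster 3, and was found in 2.22% of all promoters. It also stood at 1 position before cluster 2, 111 bp before the first start, so it is not particular to cluster 3.

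Marked chromatin at CIITA was found in 2 other places. The first lay between clusters 1 and 2. There, H3K4me3 covered 393 and 0 bp in the ATRA libraries and 604 and 0 bp in the control libraries, and H3K27ac covered 778 and 2490 bp against 0 and 4436 bp. The groups overlapped for both marks, and the libraries of a condition differed more from each other than the conditions did. A stretch of 393 bp, chr16:10962698-10963090, lay under peaks in 5 of 8 libraries, at 2619 bp from the first start of cluster 1. It holds no annotated exon and lies upstream of the canonical transcript, inside longer CIITA transcripts. Its central 300 bases, chr16:10962745-10963044 on the plus strand, read as follows.
CIITA intronic stretch: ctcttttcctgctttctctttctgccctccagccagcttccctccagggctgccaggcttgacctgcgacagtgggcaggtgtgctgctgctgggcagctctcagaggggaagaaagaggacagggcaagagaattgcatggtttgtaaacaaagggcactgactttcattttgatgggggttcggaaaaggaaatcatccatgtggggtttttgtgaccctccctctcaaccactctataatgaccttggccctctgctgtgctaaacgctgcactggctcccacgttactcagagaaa

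The second place was the 3′ side of CIITA, where DEXI and CLEC16A start in opposite directions. H3K4me3 peaks of 9887 to 10693 bp covered the TSS of both neighbors in all 4 libraries and reached over the last annotated CIITA start at 11034576, a transcript that is not protein-coding. Together with the smaller peaks, H3K4me3 in the CIITA window came to 11391 and 11260 bp in the ATRA libraries and 10491 and 10543 bp in the control libraries. The ATRA values lay above the control values with a log2 ratio of 0.10, and the ratio turned to -0.12 once each length was divided by the total length under peaks of its library. H3K27ac in this window was 778 and 5114 bp against 0 and 6429 bp.

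**Figure D4:**
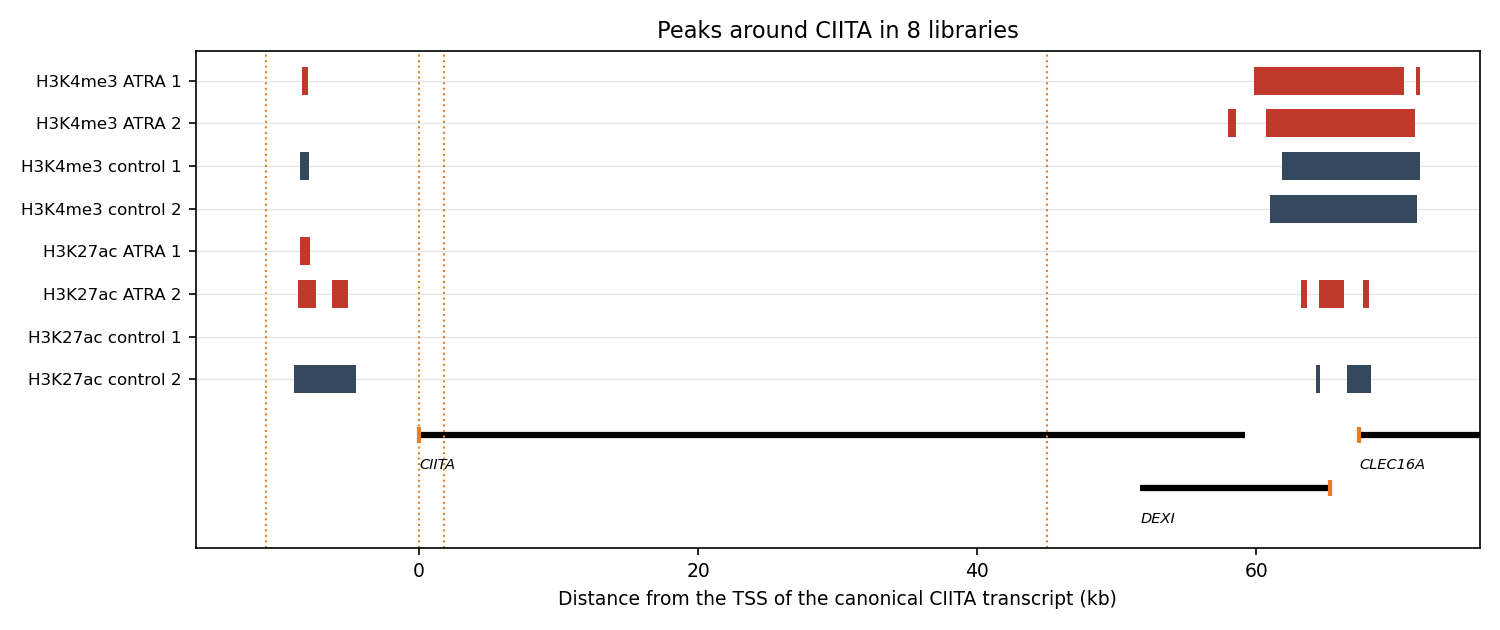
Peaks of the 8 libraries (rows) around CIITA against the distance from the TSS of the canonical CIITA transcript in kb, with ATRA in red, control in dark blue, canonical transcripts as black bars, TSS in orange and the 4 start clusters as dotted lines. No peak lies on a dotted line; the peaks between the first and the second line are present in 5 of 8 rows, and the H3K4me3 peak over DEXI and CLEC16A is present in all 4 H3K4me3 rows.

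CD74, on the minus strand of chromosome 5 from 149781200 to 149792532, was bare at its TSS and marked in its first intron. The H3K4me3 peaks were small, 362 and 222 bp in the ATRA libraries and 721 and 257 bp in the control libraries. Their near edges lay at 2426, 2438, 2386 and 2413 bp downstream of the TSS in the same order. H3K27ac in the window covered 2476 and 968 bp in the ATRA libraries and 592 and 1340 bp in the control libraries. The groups overlapped for both marks, with log2 ratios of -0.20 and 0.47. The deposited −log10 q was 16.9, 3.75, 11.3 and 4.25 for the 4 H3K4me3 peaks. The 6 H3K27ac peaks were weak by this score, at 0.80 to 1.48.

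A stretch of 156 bp in this intron, chr5:149789814-149789969, lay under a peak in all 8 libraries, at 2504 to 2659 bp downstream of the TSS. It is the only place in the 10 windows outside the BRD2 promoter where a base was covered by both marks in all 8 libraries. The sequence is given on the minus strand, from which CD74 is read.
CD74 intron 1 stretch: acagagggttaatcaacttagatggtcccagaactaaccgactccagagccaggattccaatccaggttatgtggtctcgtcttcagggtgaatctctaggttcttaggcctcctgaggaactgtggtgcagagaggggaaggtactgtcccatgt

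**Figure D5:**
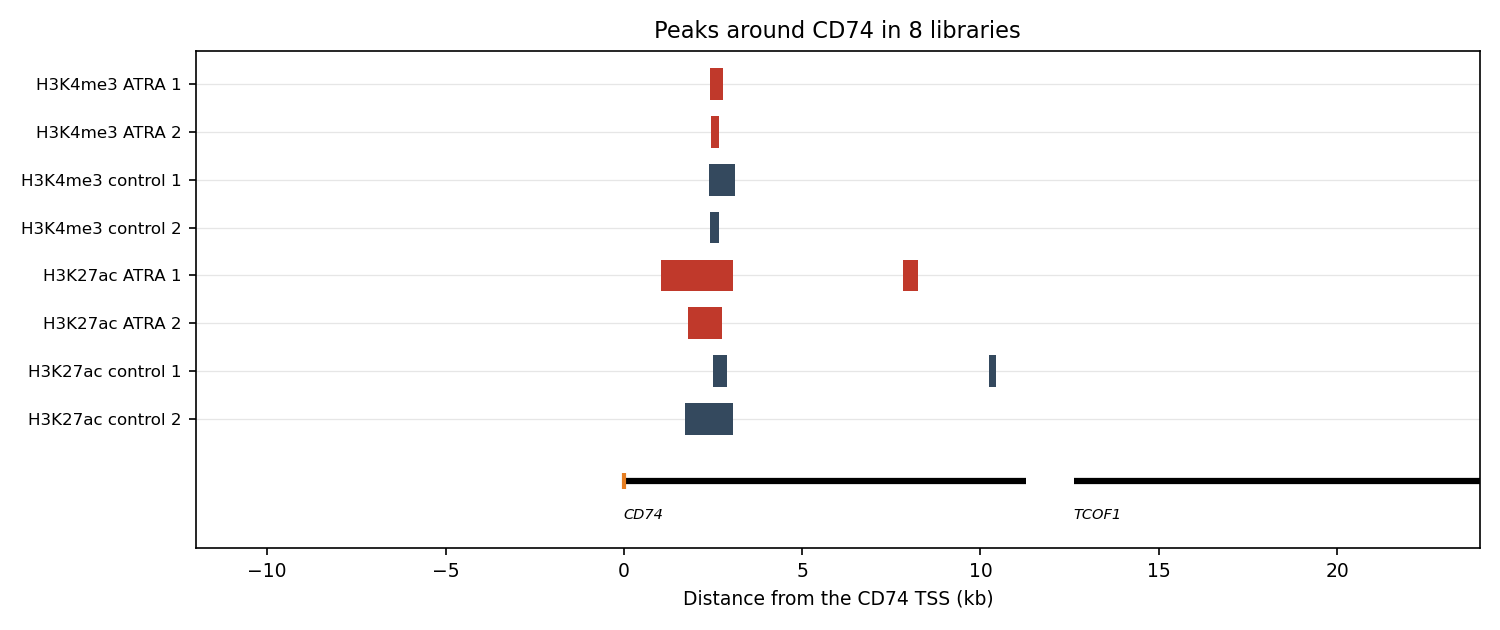
Peaks of the 8 libraries (rows) around CD74 against the distance from its TSS in kb, with ATRA in red, control in dark blue, canonical transcripts as black bars and the TSS in orange. All 8 rows have a peak about 2.5 kb downstream of the TSS, and no row has a peak on the TSS.

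Of the 10 members, 3 had more H3K4me3 in both ATRA libraries than in both control libraries, namely CIITA, HLA-DMA and HLA-DMB, and 0 had less. This order was found for 28.0% of all protein-coding genes and for 40.8% of the genes with an H3K4me3 peak in at least 1 library, and the reverse order for 2.64% and 3.86%. HLA-DMA and HLA-DMB share the peak between them and are not independent, and divided by the library totals the ratios of CIITA and HLA-DMA turned to -0.12 and -0.032, whereas that of HLA-DMB stayed at 1.35. For H3K27ac, HLA-DMB alone had more in both ATRA libraries and no member had less, against 30.3% of all genes and 41.6% of those with an H3K27ac peak, and 2.86% and 3.93% for the reverse order. For HLA-DMB, the ratio for H3K27ac was 1.68 after the division by the library totals.

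The 10 windows merge into 7 intervals with 345 kb in total. H3K4me3 covered 27157 and 25582 bp of them in the ATRA libraries and 25026 and 22768 bp in the control libraries, with a log2 ratio of 0.14 that turned to -0.087 after the division by the library totals. Of the 20 H3K4me3 peaks in these intervals, 8 lay over the TSS of a gene outside the members and held 90.8% of the peak length. Without them, 4385 and 2768 bp were left in the ATRA libraries and 1813 and 257 bp in the control libraries. H3K27ac covered 11541 and 26334 bp against 5443 and 16646 bp, where the groups overlapped and the log2 ratio of 0.73 became -0.038 after that division. Of the 26 H3K27ac peaks that covered no other gene's TSS, 1 had a deposited −log10 q of at least 5, compared with 12.8% to 16.9% of the H3K27ac peaks of a whole library.

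Of the 5 other class II loci, 4 resembled the bare members and HLA-DOA did not. HLA-DRB5, HLA-DQA2, HLA-DQB2 and HLA-DOB had no peak of either mark in any library, and no gene of this list of 5 was marked at its TSS. HLA-DOA, which encodes a chain of the DM inhibitor DO, had 568 and 0 bp of H3K4me3 in the ATRA libraries and 548 and 0 bp in the control libraries. Its H3K27ac was 1450 and 1860 bp against 0 and 0 bp. More H3K27ac in both ATRA libraries was found for 30.3% of all genes and 41.6% of those with an H3K27ac peak.

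The genes for the proteins that assemble on class II promoters carried H3K4me3 at the TSS throughout. All 7 genes of the complex, RFX5, RFXAP, RFXANK, NFYA, NFYB, NFYC and CREB1, had it in all 4 libraries, and 5 had H3K27ac there in all 4. H3K27ac covered the NFYB TSS in ATRA replicate 2 alone, and the RFXAP TSS in ATRA replicate 2 and control replicate 1 alone. Of all genes, 51.9% had H3K4me3 over the TSS in both ATRA replicates and 50.9% in both control replicates. For H3K27ac these shares were 28.6% and 21.6%. More H3K4me3 in both ATRA libraries was found for 3 of the 7 and more H3K27ac for 3 of the 7, beside 40.8% and 41.6% of all genes with a peak of that mark. The medians were 0.17 and 0.56 on the log2 scale, beside 0.15 and 0.45 for all genes with a peak. RFX5, the large subunit of the RFX factor, had 5653 and 6072 bp of H3K4me3 in the ATRA libraries and 4091 and 4309 bp in the control libraries. Its H3K27ac was 7369 and 4832 bp against 2510 and 2817 bp.

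On the interferon gamma route to CIITA, the receptor chain genes IFNGR1 and IFNGR2, the kinase genes JAK1 and JAK2 and the factor genes IRF1 and USF1 had H3K4me3 over the TSS in all 4 libraries. IRF1, which acts on promoter IV of CIITA, had 15703 and 13503 bp of H3K4me3 against 10658 and 9981 bp. Its H3K27ac was 44916 and 48411 bp against 6430 and 20416 bp. These lengths are sums over the annotated gene body, from 131776132 to 131844411 on chromosome 5, and 10 kb each side. Peaks over the TSS of other genes were not taken out of them. H3K27ac covered the IRF1 TSS in ATRA replicate 1 alone. Higher values in both ATRA libraries were found for 40.8% (H3K4me3) and 41.6% (H3K27ac) of all genes with a peak of that mark. Of the 3 genes listed as repressors of CIITA, PRDM1, EZH2 and HDAC2, all had H3K4me3 over the TSS in all 4 libraries. PRDM1, whose product silences CIITA promoter III in plasma cells, had 14919 and 13878 bp against 12018 and 8854 bp.

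Of the 8 genes for processing and turnover, IFI30, CTSS, CTSB and CTSD, which encode a thiol reductase and cathepsins of the endosomal route, had H3K4me3 over the TSS in all 4 libraries. LGMN, MARCHF1 and MARCHF8 had none at the canonical TSS, and CTSL had a peak there in 1 library of each condition. More H3K4me3 in both ATRA libraries was found for 5 of 8 and more H3K27ac for 5 of 8, beside the same 40.8% and 41.6% of all genes with a peak. The medians were 0.36 and 1.11, beside 0.15 and 0.45 for all genes with a peak. CTSD, a cathepsin, had 15687 and 12764 bp of H3K27ac in the ATRA libraries and 915 and 3378 bp in the control libraries. MARCHF1, a ubiquitin ligase that removes class II molecules from the surface, had 636 and 9819 bp of H3K27ac against 0 and 586 bp. This is summed over a long gene, from 164445450 to 165305202, and no H3K27ac peak covered its TSS. ATRA replicate 1 was close to control replicate 2, so the size of the difference rests on ATRA replicate 2.

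Of the nearest neighbors of the DR and DQ genes, TSBP1, BTNL2, HLA-DRB5, HLA-DQA2 and HLA-DQB2 lie in the same stretch without peaks. Across the class II region, 8 of 10 listed neighbors, among them TAP1, TAP2, PSMB8 and PSMB9 of the class I peptide supply, had H3K4me3 over the TSS in all 4 libraries. BTNL2 had no peak at all, and the NOTCH4 TSS was bare. HLA-DOB lies between the bare stretch and TAP2 and was itself bare. Of the class I genes, HLA-B, HLA-C, HLA-E and B2M, the shared light chain, had H3K4me3 over the TSS in all 4 libraries, and HLA-F had no peak of either mark in its window in any library. HLA-C had 6023 and 6525 bp of H3K4me3 in the ATRA libraries and 5989 and 4612 bp in the control libraries. The groups did not overlap, but ATRA replicate 1 and control replicate 1 were close, and 28.0% of all protein-coding genes had this order. Among the listed neighbors of CIITA, DEXI, CLEC16A, SOCS1 and NUBP1 were marked in the same way and TVP23A was bare. Of the neighbors of CD74, RPS14 and TCOF1 had H3K4me3 over the TSS in all 4 libraries.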

How the data were processed

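Per the labels and the study's methods, adapters were removed, reads were aligned to hg19 with Bowtie, and broad peaks were called with MACS2 for each library separately. Input libraries of fragmented genomic DNA were made. Read length, the handling of reads with several matches and whether the peak call used that input are not given in the sources used here. The authors deposited each peak's position and its −log10 q, which is quoted for single peaks and served as a filter at 5, and the fold and −log10 p columns, which hold impossible values, were left out. Depth is unknown.

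Genes, transcripts and canonical TSS came from GENCODE release 44 on GRCh37, and 0 peaks ran past a chromosome end of that assembly. For each gene, the length under peaks was summed over the gene body and 10 kb on each side, and the TSS was called marked when a peak covered it. The 2 condition means, each raised by 1000 bp, were divided and put on the log2 scale. A gene was called higher or lower when both ATRA libraries lay above or below both control libraries. CIITA starts within 500 bp of each other were joined into clusters. Alternatives were the TSS of any transcript, a peak within 1 kb, stricter peaks, other windows and pseudocounts, a division by the library totals, leaving out each replicate and a replicate block. Genes named from the lists were those with the largest ratio without overlap, up to 4 a list, and those without a peak. Some items that the lists cover are not reported here. The members and lists were chosen with earlier results of these data known. Scripts ran in Python 3.11.15 with numpy 2.4.6 and pandas 2.3.3, and were tested on simulated peak lists.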

Additional observations from a re-analysis of the deposited data

How the results depend on the processing

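With the TSS of any annotated transcript, 2 members had H3K4me3 in both replicates of each condition, CIITA and HLA-DMA, where the start lay under the peak of a neighboring gene, and H3K27ac was found at 2 members in the ATRA-treated cells and at 1 in the control cells. With all CIITA transcripts, 1 start cluster had a peak within 500 bp. Leaving out a replicate gave 0 to 1 members with H3K27ac over the TSS in the ATRA-treated cells, where the 1 was HLA-DMB in replicate 2 alone. For the summed windows, the H3K4me3 ratio of 0.14 turned to -0.087 once lengths were divided by the library totals, and to -0.12 for CIITA and -0.032 for HLA-DMA. The same division took the H3K27ac ratio from 0.73 to -0.038 in the summed windows and from 0.65 to -0.21 for HLA-DMA, where the groups had overlapped. The H3K4me3 ratio was 0.41 with windows of the canonical transcript and 10 kb each side. It was 1.17 without peaks over the TSS of other genes. Both settings were chosen after the data had been seen. The H3K27ac ratio of 0.73 was -0.59 with peaks of −log10 q of at least 5, in the summed windows as in the HLA-DMB window, where 1 such peak was left. Leaving out a replicate gave 0.073 to 0.20 for H3K4me3 and 0.058 to 1.63 for H3K27ac in the summed windows. The H3K4me3 extremes came without control replicate 2 (0.073) and without control replicate 1 (0.20), and the H3K27ac extremes without ATRA replicate 2 (0.058) and without control replicate 2 (1.63), so that the size of both ratios rests on single libraries. For HLA-DMB alone the ratio was 0.91 without ATRA replicate 1 to 1.80 without ATRA replicate 2 for H3K4me3, and 1.08 without ATRA replicate 2 to 3.09 without control replicate 2 for H3K27ac. Of 68 values recomputed for the counts and summed windows, 57 stayed within 1.5 times the count or within the spread between libraries. Part of this was fixed in advance. Stricter peaks cannot raise a count of 0, and leaving out a library cannot raise the count of CIITA promoters. The spread for the summed H3K27ac ratio was 1.06, wider than the ratio itself. The tally is therefore no measure of stability.

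Libraries of the same replicate number share a date-like tag in the peak names, but with 2 pairs the pairing is not established. Over 20090 gene windows, their deviations from the condition means had a Pearson r of 0.25 for H3K4me3 and 0.63 for H3K27ac. With a replicate block, the ratio of the summed windows was 0.14 for H3K4me3 and 0.80 for H3K27ac, the count of members with H3K27ac over the TSS in the ATRA-treated cells was 0.5 as a mean over the 2 numbers, and the other counts were 0. Peak lists without reads limit what a bare window means: a mark below the threshold of the peak call cannot be told from none.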
